A study of Mus musculus with 6 samples.

Results

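Transcripts of mast cells, basophils and eosinophils were followed through 8 genes, *Kit*, *Cpa3*, *Mcpt8*, *Prg2*, *Fcer1a*, *Ms4a2*, *Gata2* and *Hdc*, out of 24223 genes counted in RNA-Seq libraries of mouse CD4+ T cells. The genes were chosen by symbol, with their CPM (counts scaled to the total count of the library) in these same libraries already known, so that their levels are described here without a test. The study compared non-activated naive CD4+ T cells (Naive) with Th17 and Th1 cells made from them, with 2 libraries of each, stated to be independent biological replicates. All cells came from C57BL/6 mice of 1 to 2 months, with no genetic change stated. CD4+CD62L+ selection was applied to pooled lymph node and spleen cells to obtain CD44- naive cells. The purity of these naive cells by flow cytometry was reported as high but not complete. Th17 cells were stimulated through CD3 and CD28 with TGF-β, IL-6, IL-1β and IL-23 while IL-4 and IFN-γ were blocked, and Th1 cells with IL-12 and IL-2 while IL-4 was blocked, and both were collected on the fifth day. The methods describe no sort after culture. Nothing in the labels ties a replicate number to particular animals, and since these were bulk preparations, fewer cells of a type and less RNA per cell cannot be told apart.

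Mast cells and basophils carry IgE on the high-affinity receptor FcεRI, whose alpha chain is encoded by *Fcer1a*, beta chain by *Ms4a2* and gamma chain by *Fcer1g*. Cross-linking of the bound IgE signals through Lyn and Syk and releases granules with histamine, made by the enzyme encoded by *Hdc*, and proteases such as carboxypeptidase A3 (*Cpa3*) and the basophil protease *Mcpt8*. Eosinophils store cationic proteins, among them major basic protein (*Prg2*) and eosinophil peroxidase (*Epx*), although *Prg2* is also made by mast cells and basophils. The receptor tyrosine kinase Kit, which binds stem cell factor, and the transcription factor GATA2 maintain mast cells and their precursors, and both are also expressed by haematopoietic stem and progenitor cells.

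The total count was 64826757 and 18608805 for Naive replicates 1 and 2, 59973041 and 17742158 for Th17, and 69080017 and 18347752 for Th1, so that replicate 1 was the deeper library in every cell type. A floor of 3 counts corresponded to between 0.0434 and 0.169 CPM. As a check that the libraries hold T cells, which does not tell Naive, Th17 and Th1 apart, all 10 T cell genes read, *Cd3e* and *Cd4* among them, were above 10 CPM in all 6 libraries, with sums between 4090 and 5483 CPM. The 8 genes together took 222 and 72.3 CPM in Naive, 230.1 and 519 CPM in Th17 and 67.9 and 43.2 CPM in Th1. In each library their sum was far below that of the T cell genes.

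The 8 genes lie on different chromosomes of GRCm38, apart from *Prg2* and *Hdc*, which share chromosome 2. *Fcer1a* is at chr1:173221284-173227214, *Ms4a2* at chr19:11615523-11623719, *Cpa3* at chr3:20215620-20242181, *Mcpt8* at chr14:56082166-56085273 and *Hdc* at chr2:126593667-126619299, all on the minus strand. *Kit* is at chr5:75574916-75656722, *Gata2* at chr6:88193891-88207032 and *Prg2* at chr2:84980461-84983632 on the plus strand. All are annotated as protein-coding, and reads were counted over their exons.

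The sequences before the starts of 4 genes are shown because these genes encode the IgE receptor chains and granule proteases among the 8, all with their highest level in Th17, and because GATA2, which is among the 8, binds GATA motifs. Each run is the 250 bases before the RefSeq start (GRCm38.p6), written 5′ to 3′ on the minus strand, with the GATA core (GATAA, or TTATC for the other strand) in capitals. Fcer1a spans chr1:173227230-173227479, Ms4a2 chr19:11623720-11623969, Cpa3 chr3:20242182-20242431 and Mcpt8 chr14:56085198-56085447.
Fcer1a: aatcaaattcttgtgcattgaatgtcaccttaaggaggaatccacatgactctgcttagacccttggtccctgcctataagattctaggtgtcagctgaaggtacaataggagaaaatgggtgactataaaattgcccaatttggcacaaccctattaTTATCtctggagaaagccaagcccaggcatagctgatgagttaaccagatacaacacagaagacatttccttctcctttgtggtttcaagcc
Ms4a2: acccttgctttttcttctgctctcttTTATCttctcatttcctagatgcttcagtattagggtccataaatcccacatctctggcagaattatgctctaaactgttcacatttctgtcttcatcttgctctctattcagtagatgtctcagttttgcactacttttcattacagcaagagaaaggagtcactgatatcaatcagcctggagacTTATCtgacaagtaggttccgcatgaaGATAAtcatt
Cpa3: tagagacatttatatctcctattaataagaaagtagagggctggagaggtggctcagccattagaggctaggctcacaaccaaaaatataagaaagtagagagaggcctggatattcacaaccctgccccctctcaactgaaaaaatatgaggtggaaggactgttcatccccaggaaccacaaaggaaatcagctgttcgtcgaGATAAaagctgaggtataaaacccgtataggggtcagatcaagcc
Mcpt8: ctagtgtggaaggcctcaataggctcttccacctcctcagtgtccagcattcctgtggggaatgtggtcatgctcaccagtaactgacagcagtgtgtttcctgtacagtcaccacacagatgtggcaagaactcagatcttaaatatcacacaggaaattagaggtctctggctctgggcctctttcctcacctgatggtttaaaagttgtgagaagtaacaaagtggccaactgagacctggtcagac

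The GATA core was present 3 times before *Ms4a2* and 1 time each before *Fcer1a* and *Cpa3*, and it was not found before *Mcpt8*, *Kit*, *Gata2* or *Hdc*. It was present in 22.5% of 32536 windows of the same length before the genes of the RefSeq table. The E-box bound by MITF-type factors (CACATG or CATGTG) was found 1 time, before *Fcer1a*, and in 12.3% of all windows. The PU.1 core (AGGAAG or CTTCCT) was found before *Kit* and *Hdc* and in 29.6% of all windows. RefSeq windows were matched for 7 of the 8 genes, without *Prg2*. The windows of *Mcpt8*, *Kit* and *Hdc*, and 1 of *Gata2*, overlap the gene spans given above. Those spans come from GENCODE, whose gene ends differ from the RefSeq starts used here. Only the sequences given were searched, and other forms of these motifs were not counted. These matches describe letters in the windows, and no binding was measured here.

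The 5 genes of effector mast cells and basophils had their highest level in Th17. *Fcer1a*, the IgE-binding chain, was at 0.247 and 0.0537 CPM in Naive (16 counts and 1 count), at 12.3 and 53.7 CPM in Th17, and at 2.10 and 0.872 CPM in Th1. The exact binomial 95% interval for the single count of Naive replicate 2 ran from 0.00136 to 0.299 CPM. It is taken within 1 library and covers counting error only, as if each read were an independent molecule, which PCR copies are not. Both Th17 libraries lay above every other library, and the Th17 mean of 33.0 ± 29.3 CPM (SD, n = 2) was 22.2 times the Th1 mean and 219 times the Naive mean. The Th1 libraries lay above the Naive libraries without overlap.

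*Ms4a2*, the beta chain that amplifies the receptor's signal, was at 3.41 and 1.18 CPM in Naive, at 7.89 and 18.3 CPM in Th17, and at 1.71 and 0.654 CPM in Th1. Th17 was again above the other libraries, but Naive and Th1 overlapped. Thus *Ms4a2* was detected in Naive with 221 and 22 counts, where *Fcer1a* had 16 counts and 1 count, the last below the floor of 3 counts. Per kilobase of exon, the mean level of *Ms4a2* was above that of *Fcer1a* in Naive (0.816 and 0.151 CPM per kb) and below it in Th17 (4.65 and 33.0) and Th1 (0.420 and 1.49).

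*Mcpt8*, the granule protease characteristic of mouse basophils, was at 7.98 and 1.29 CPM in Naive, at 71.9 and 118 CPM in Th17, and at 11.4 and 10.6 CPM in Th1. No cell types overlapped, and the Th17 mean of 95.01 ± 32.6 CPM (SD, n = 2) was 8.66 times the Th1 mean and 20.5 times the Naive mean. *Cpa3*, a carboxypeptidase of mast cell and basophil granules, was at 6.36 and 4.41 CPM in Naive, at 37.1 and 110.1 CPM in Th17, and at 17.4 and 3.38 CPM in Th1. The Th1 replicates of *Cpa3* differed 5.16-fold and enclosed both Naive libraries, so that no order between Naive and Th1 can be given for it. *Hdc*, the histidine decarboxylase that makes histamine, had the smallest range, with 6.15 and 4.08 CPM in Naive, 8.89 and 11.6 CPM in Th17, and 6.41 and 3.82 CPM in Th1. Its Th17 mean was 2.00 times that of Naive and of Th1, and Naive and Th1 overlapped.

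*Prg2* was present in both Naive and Th17 and low in Th1. It was at 58.6 and 13.8 CPM in Naive, at 62.8 and 177 CPM in Th17, and at 0.941 and 0.382 CPM in Th1. The last value rests on 7 counts, with an exact binomial 95% interval from 0.153 to 0.786 CPM. Th17 replicate 1 was only slightly above Naive replicate 1, and the Th17 mean of 119.9 ± 80.8 CPM (SD, n = 2) was 3.31 times that of Naive and 181 times that of Th1. Per kilobase of exon, *Prg2* was the highest of the 8 genes in all Naive and Th17 libraries, with means of 43.2 and 143 CPM per kb. In Th1 the highest per kilobase was *Cpa3* in replicate 1 and *Mcpt8* in replicate 2.

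*Kit* and *Gata2*, which mast cells share with progenitors, had their highest mean in Naive. *Kit* was at 105 and 32.1 CPM in Naive, at 14.0 and 11.4 CPM in Th17, and at 22.1 and 19.3 CPM in Th1. Every Naive library was above every Th1 library, and every Th1 library above every Th17 library. *Gata2* was at 34.2 and 15.4 CPM in Naive, at 15.3 and 18.7 CPM in Th17, and at 5.76 and 4.14 CPM in Th1. Naive and Th17 overlapped for *Gata2*, and both were above Th1, with a Naive mean 5.01 times the Th1 mean. The plot of the 8 genes by library places the 6 values of each gene on one log scale.

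**Figure D1:**
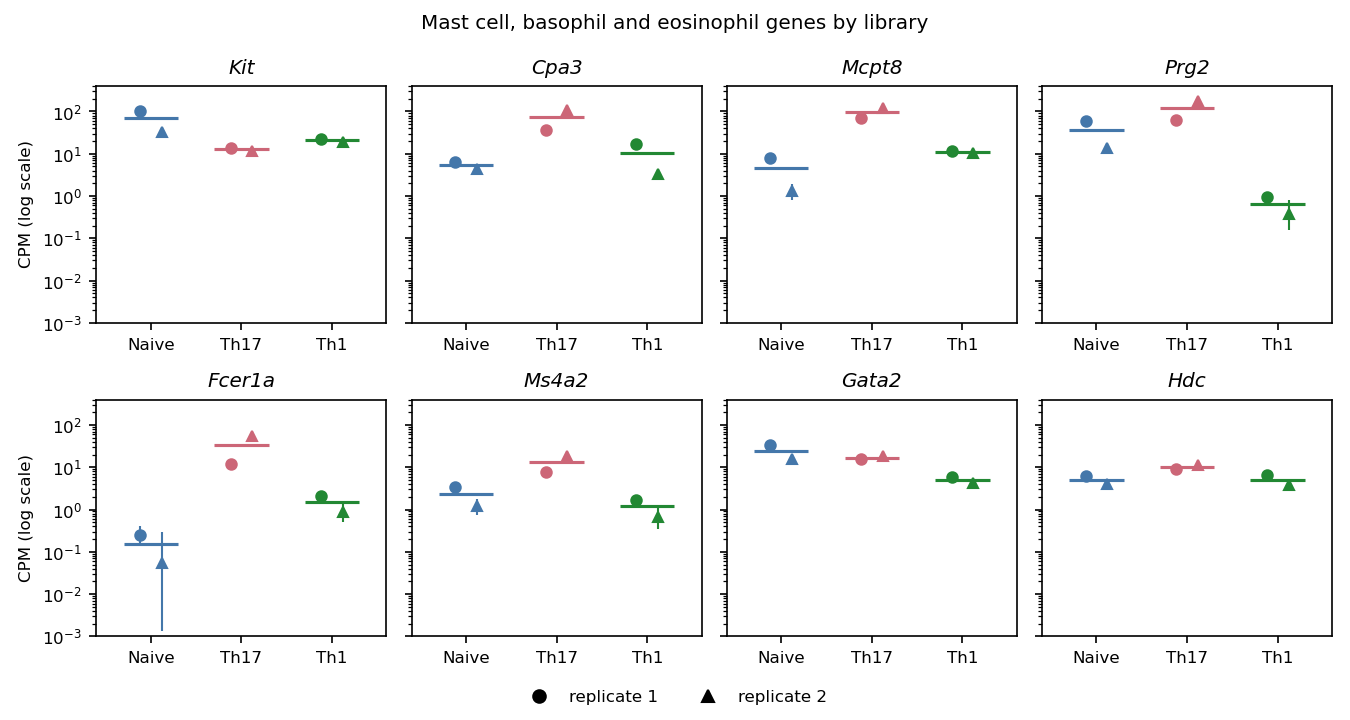
Each panel plots the CPM of 1 gene (log scale) in the 2 libraries of Naive, Th17 and Th1. Circles are replicate 1, triangles are replicate 2, horizontal lines are group means and vertical lines are exact binomial 95% intervals. *Fcer1a* and *Mcpt8* stand highest in Th17, *Prg2* falls to under 1 CPM in Th1, and *Kit* stands highest in Naive.

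Fold changes came from edgeR's quasi-likelihood model of all 6 libraries, given with the standard error (SE) and without a p-value for these 8 genes. For Th17 compared with Naive it was, on the log2 scale, 7.51 (SE 0.94) for *Fcer1a*, 4.34 (SE 0.70) for *Mcpt8*, 3.82 (SE 0.75) for *Cpa3* and 2.51 (SE 0.67) for *Ms4a2*. It was 1.77 (SE 0.67) for *Prg2*, 1.03 (SE 0.43) for *Hdc*, -0.52 (SE 0.42) for *Gata2* and -2.42 (SE 0.49) for *Kit*. When each library was left out in turn, the values ranged from 6.04 to 9.26 for *Fcer1a*, 3.59 to 6.27 for *Mcpt8*, 2.74 to 4.45 for *Cpa3*, 1.71 to 3.54 for *Ms4a2*, 0.74 to 3.21 for *Prg2*, 0.74 to 1.39 for *Hdc* and -3.05 to -1.29 for *Kit*. The sign for *Gata2* turned, with 0.21 without Naive replicate 1. The highest values of *Fcer1a*, *Mcpt8*, *Ms4a2* and *Prg2* were those without Naive replicate 1, and the lowest of *Fcer1a*, *Cpa3*, *Ms4a2* and *Prg2* those without Th17 replicate 2.

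In Th1 compared with Naive, which shares the Naive libraries with the comparison above, the values were -5.42 (SE 0.83) for *Prg2*, -2.09 (SE 0.44) for *Gata2*, -1.49 (SE 0.47) for *Kit* and 3.26 (SE 0.86) for *Fcer1a*. They were 1.42 (SE 0.63) for *Mcpt8*, 1.17 (SE 0.68) for *Cpa3*, 0.23 (SE 0.43) for *Hdc* and -0.72 (SE 0.66) for *Ms4a2*. With 1 library left out, the values ranged from -6.22 to -3.98 for *Prg2*, -2.56 to -1.37 for *Gata2*, -2.11 to -0.37 for *Kit*, 2.55 to 5.01 for *Fcer1a* and 0.68 to 3.35 for *Mcpt8*, and the highest value of each was that without Naive replicate 1. The other 3 signs turned. The value of *Cpa3* was -0.34 without Th1 replicate 1, that of *Ms4a2* was 0.31 without Naive replicate 1, and that of *Hdc* was -0.042 without Naive replicate 2 and -0.084 without Th1 replicate 1.

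In Th1 compared directly with Th17, 7 of the 8 genes had a negative log2 fold change, from -7.19 (SE 0.89) for *Prg2* to -0.80 (SE 0.43) for *Hdc*. *Fcer1a* was at -4.25 (SE 0.77), *Ms4a2* at -3.23 (SE 0.70), *Mcpt8* at -2.92 (SE 0.65), *Cpa3* at -2.65 (SE 0.71) and *Gata2* at -1.57 (SE 0.43). The exception was *Kit*, at 0.93 (SE 0.47). No sign turned with 1 library left out, but without Th17 replicate 2 *Fcer1a* was at -2.74 and *Cpa3* at -1.57, and without Th1 replicate 1 *Cpa3* was at -4.21, and *Hdc* ranged from -1.16 to -0.51. Thus *Kit*, the receptor used to grow mast cells from precursors, was lowest in the Th17 libraries, in which the IgE receptor chains and granule proteases were highest.

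The replicates of a cell type differed for these genes, and they did so in one direction per cell type. In Naive, replicate 1 was above replicate 2 for all 8 genes, by 1.44-fold for *Cpa3* to 6.18-fold for *Mcpt8*. In Th17, replicate 2 was above replicate 1 for 7 genes, by 1.22-fold for *Gata2* to 4.38-fold for *Fcer1a*, with *Kit* as the exception at 1.23-fold the other way. In Th1, replicate 1 was above replicate 2 for all 8 genes, by 1.07-fold for *Mcpt8* to 5.16-fold for *Cpa3*. More than a 2-fold difference in these directions was seen for 6 genes in Naive, where 12.5% of the 13607 genes tested differed as much in that direction, for 4 genes in Th17, against 2.61% of all, and for 4 genes in Th1, against 14.9% of all. A gene counted only in the higher library is included in these shares, and the reverse direction held 4.67%, 8.19% and 4.14% of all genes. These counts describe genes that were picked with their replicate values known.

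The same was asked of 69 other genes of mast cells, basophils and eosinophils, grouped by role and also written down with earlier results known, of which 56 passed the filter on low counts. In Naive, replicate 1 was over 2-fold above replicate 2 for 33 of the 56 (58.9%), against 12.5% of all genes tested, and 0 differed as much the other way. In Th17, replicate 2 was over 2-fold above replicate 1 for 10 (17.9%), against 2.61% of all, and 3 genes differed as much the other way. In Th1, replicate 1 was over 2-fold above replicate 2 for 19 (33.9%), against 14.9% of all, and 5 differed the other way. The median log2 ratio of replicate 1 to replicate 2 was 1.62 for the 8 genes and 1.30 for the 47 list genes with a count in both libraries in Naive, -0.96 and -0.20 (56 list genes) in Th17, and 1.01 and 0.66 (49 list genes) in Th1. Replicate 1 was the deeper library in all 3 cell types, and the part of depth in these differences was not tested.

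**Figure D2:**
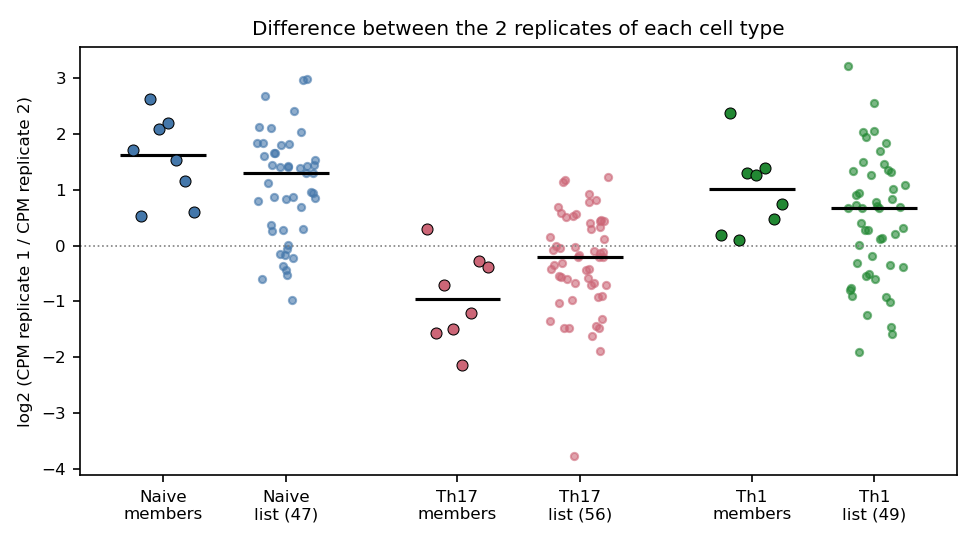
The y axis is the log2 ratio of the CPM in replicate 1 to that in replicate 2, for the 8 genes (members, outlined points) and for the tested genes of the list with a count in both libraries (number in brackets). Horizontal lines are medians. The medians of the 8 genes are 1.62 in Naive, -0.96 in Th17 and 1.01 in Th1.

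Marker genes of other blood cells also differed between the libraries, and not all of the lists did so as the 8 genes did. The sum of 14 neutrophil genes was 396 and 242 CPM in Naive, 3435 and 2967 CPM in Th17, and 68.8 and 81.9 CPM in Th1. Of the 14, *Retnlg* had no count in Th1 replicate 1, *Csf3r* had none in Th1 replicate 2, and *S100a9*, *Ltf*, *Camp* and *Retnlg* had none in Naive replicate 2. The sum of 12 macrophage and monocyte genes was 39.6 and 20.04 CPM in Naive, 268 and 814 CPM in Th17, and 15.7 and 13.2 CPM in Th1. This sum was higher in Th17 replicate 2 than in replicate 1, as it was for 7 of the 8 genes, whereas the neutrophil sum was higher in replicate 1. Naive and Th1 libraries lacked 2 or 3 of these 12 genes each, among them *Marco*. All 12 had a count in both Th17 libraries, but only 1 and 3 were above 10 CPM in replicates 1 and 2.

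The sum of 8 megakaryocyte and platelet genes was also highest in Th17, with 320.5 and 491 CPM, while Naive had 31.1 and 8.28 CPM and Th1 had 81.7 and 35.2 CPM. The sum of 9 progenitor genes was highest in Naive, as were *Kit* and the mean of *Gata2*, with 254 and 123 CPM there, 76.5 and 62.1 CPM in Th17, and 31.1 and 8.18 CPM in Th1. Of the 9, 3 and 1 were above 10 CPM in Naive replicates 1 and 2, and *Spink2* had no count in either. The 9 erythroid genes summed to 212 and 27.0 CPM in Naive and to between 0.927 and 3.55 CPM elsewhere, with the 4 globin genes on the list at 0 in every library. The Naive sums thus came from 5 genes. Reads that match several relatives could be lost in counting, so the rows at 0 do not show that the globin genes were silent. The 6 B cell genes summed to between 2.33 and 19.0 CPM. The part of these other cell types in the levels of the 8 genes was not tested.

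**Figure D3:**
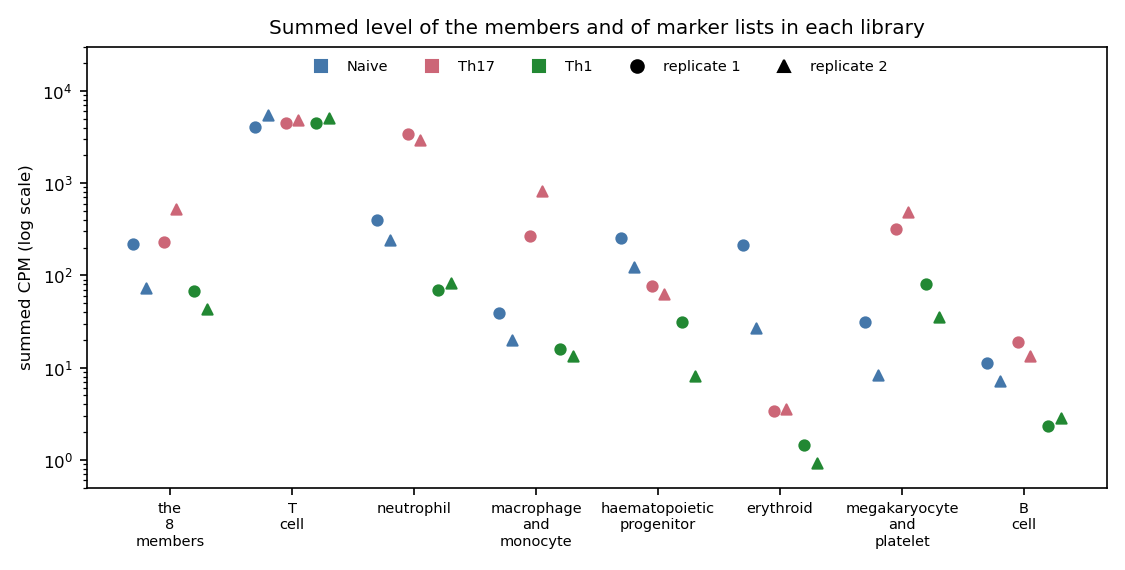
The y axis is the summed CPM (log scale) of the 8 genes and of 7 marker lists in each library, with colours for the cell type and symbols for the replicate. The T cell sum stays between 4090 and 5483 CPM, and the sums for neutrophil, macrophage and monocyte, and megakaryocyte and platelet genes are highest in Th17.

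The 69 other genes were compared between the cell types in the same fit. A call needed an adjusted p-value under 0.01 (edgeR, Benjamini-Hochberg) and an absolute log2 fold change above 1. Because the list was also written down with earlier results known, its shares below describe it and are no independent test. Some genes, such as *Il5* with no count in Naive, passed the filter only through the cell type where they were high. Of the 56 tested, 10 (17.9%) were higher in Th17 than in Naive, against 4.01% of all genes tested, and 1 (1.79%) was lower, against 1.43% of all. *Il13* and *Bhlhe40*, which T cells also make, were among the 10, so the share does not describe mast cell, basophil and eosinophil transcripts alone. The median log2 fold change of the 56 was 1.16, and that of all genes was -0.02. Leaving out 1 library left between 6 and 11 genes higher, with 6 both without Naive replicate 2 and without Th17 replicate 2, and between 1 and 4 lower, with 4 without Naive replicate 2.

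In Th1 compared with Naive, 4 of the 56 (7.14%) were higher, against 4.64% of all genes, and 10 (17.9%) were lower, against 2.81% of all. *Bhlhe40* was again among those higher. The median log2 fold change of the 56 was -0.76 as fitted. With genes at 0 in a group set to their bound, it was -0.61 over 53 genes. *Mcpt1*, *Mcpt2* and *Il5* were left out there, because their other group was below the floor and gave no bound. The number lower fell to 6 without Naive replicate 1 and to 5 without either Th1 replicate. In Th1 compared with Th17, 2 (3.57%) were higher, against 2.7% of all genes, and 13 (23.2%) were lower, against 2.83% of all, with a median of -2.06. The number lower there was 21 without Naive replicate 1, 23 without Naive replicate 2, 7 without Th17 replicate 1, 4 without Th17 replicate 2, 7 without Th1 replicate 1 and 5 without Th1 replicate 2. The number higher there was 4 without Naive replicate 2, 1 without Th17 replicate 1 and 0 without Th17 replicate 2 or Th1 replicate 2.

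**Figure D4:**
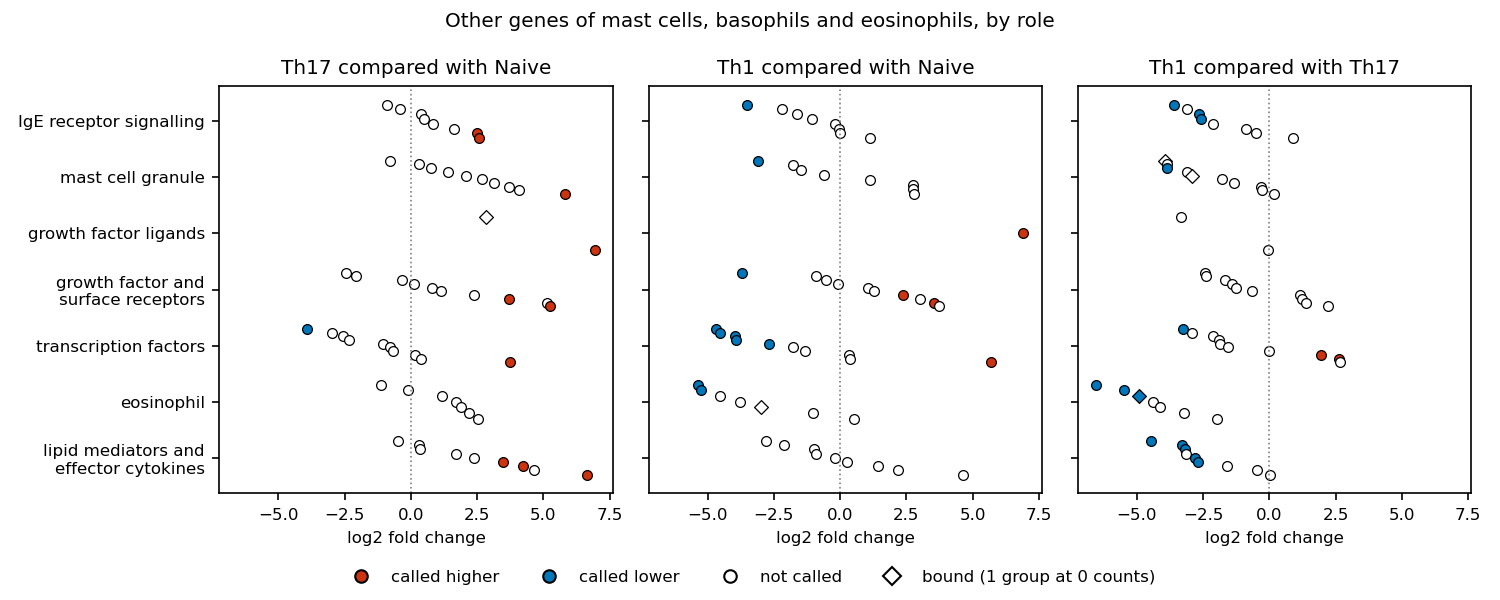
Each point is 1 of the list genes that could be tested, placed by its log2 fold change and grouped by role, in the 3 comparisons. Red points were called higher, blue points lower, open points did not pass, and diamonds are bounds for genes with no count in 1 cell type. *Mcpt1*, *Mcpt2* and *Il5* have no point in Th1 compared with Naive. In Th1 compared with Th17, 46 of the 56 points lie to the left, and the median is negative in every role.

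In signalling from the IgE receptor, 2 of 8 genes rose in Th17 compared with Naive and 6 did not pass. *Fcer1g*, the gamma chain shared with other Fc receptors, was at 7.59 and 3.98 CPM in Naive, 25.5 and 41.6 CPM in Th17 and 2.94 and 1.80 CPM in Th1. It rose in Th17 (log2 fold change 2.56, SE 0.46, adjusted p = 0.00598) and was lower in Th1 than in Th17 (-3.61, SE 0.48, adjusted p = 0.00149). *Lat2*, an adaptor phosphorylated after receptor engagement, rose by 2.49 (SE 0.50), with an adjusted p of 0.00996 close to the threshold, from 6.49 and 3.55 CPM to 19.2 and 36.1 CPM. All 3 chains of the receptor thus had their highest libraries in Th17.

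The kinases of the pathway were less uniform. *Lyn*, which phosphorylates the receptor first, was at 14.7 and 5.96 CPM in Naive, 12.5 and 14.3 CPM in Th17 and 1.93 and 1.91 CPM in Th1, and was lower in Th1 than in Th17 (log2 fold change -2.60, SE 0.49, adjusted p = 0.00804). *Btk* was at 31.0 and 8.87 CPM in Naive, 11.8 and 17.5 CPM in Th17 and 1.97 and 0.927 CPM in Th1, and fell in Th1 compared with Naive (-3.52, SE 0.64, adjusted p = 0.00505). *Syk*, which T cells largely replace by another kinase, was at 29.4 and 9.73 CPM in Naive, 30.3 and 24.1 CPM in Th17 and 5.85 and 4.85 CPM in Th1 and did not pass in any comparison. *Inpp5d*, an inhibitory phosphatase of many leukocytes, had between 58.7 and 183 CPM, and *Plcg2* between 6.39 and 42.2 CPM, and neither passed.

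Among 12 mast cell granule genes, 10 were tested, and 1 rose in Th17 compared with Naive. This was *Cma1*, a mast cell chymase, which was at 0.494 CPM and 0 in Naive, 7.37 and 27.2 CPM in Th17 and 2.71 and 0.763 CPM in Th1 (log2 fold change 5.83, SE 1.08, adjusted p = 0.00703). Its replicates differed as those of *Fcer1a* did, with Th17 replicate 2 the highest. *Ctsg*, cathepsin G of neutrophils and mast cells, was at 45.4 and 23.4 CPM in Naive, 55.7 and 59.1 CPM in Th17 and 4.20 and 2.62 CPM in Th1, and was lower in Th1 than in Naive (-3.09, SE 0.40, adjusted p = 9.81e-04) and Th17 (-3.85, SE 0.42, adjusted p = 5.18e-04). *Srgn*, the proteoglycan core of many leukocyte granules, was at 217 to 691 CPM and *Ndst2*, a heparin sulfotransferase, at 23.6 to 52.3 CPM, and neither passed. Chymases and the *Mcpt* genes are close paralogs, so that reads may be shared or lost among them.

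Of 10 eosinophil genes, 7 were tested, with 2 lower in Th1 than in Naive and 3 lower in Th1 than in Th17. None of the 7 was called in Th17 compared with Naive. *Epx* was at 9.83 and 2.79 CPM in Naive, 12.5 and 15.8 CPM in Th17 and 0.188 CPM and 0 in Th1, and was lower in Th1 than in Naive (log2 fold change -5.38, SE 0.86, adjusted p = 0.00287) and in Th17 (-6.55, SE 0.89, adjusted p = 0.00155). *Prg3*, a paralog of *Prg2*, was at 1.91 and 0.537 CPM in Naive, 2.82 and 5.24 CPM in Th17 and 0.0869 and 0.0545 CPM in Th1, lower in Th1 than in Th17 (-5.48, SE 0.89, adjusted p = 0.00372). *Ear1*, a ribonuclease with near-identical relatives, had no count in Th1 and 108 and 79 counts in Th17, at least 30.2-fold lower in Th1 against a floor of 3 counts per library (adjusted p = 0.0044). *Siglecf*, an eosinophil surface lectin, was at 3.42 and 1.29 CPM in Naive and, unlike *Epx*, *Prg3* and *Ear1*, lower in Th17, at 1.03 and 1.13 CPM. It had 2 counts in each Th1 library (adjusted p = 0.00445 for Th1 compared with Naive). As for *Prg2*, the lowest libraries of *Epx*, *Prg3*, *Ear1* and *Siglecf* were those of Th1.

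The growth factors of these cells differed in kind. *Csf2*, encoding GM-CSF, rose in both helper types, from 0.293 and 0.107 CPM in Naive to 33.1 and 24.4 CPM in Th17 (log2 fold change 6.94, SE 0.52, adjusted p = 5.92e-05) and 19.1 and 28.01 CPM in Th1 (6.89, SE 0.52, adjusted p = 5.68e-05). *Il5*, the eosinophil growth factor, had no count in Naive and 34 and 16 counts in Th17, at least 7.08-fold above the floor in Naive, with an adjusted p of 0.0142 that did not pass. *Il3*, which expands basophils and mast cells, had 0 to 14 counts per library, and *Kitl*, the ligand of Kit, 0 to 13, too few to be tested. Only 2 of the 7 ligand genes were tested.

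Of 13 receptor genes, 10 were tested, with 2 higher in Th17 than in Naive and, in Th1 compared with Naive, 2 higher and 1 lower. *Csf2rb*, the signalling chain shared by the IL-3, IL-5 and GM-CSF receptors, was at 5.51 and 2.53 CPM in Naive, 41.2 and 62.1 CPM in Th17 and 12.4 and 4.52 CPM in Th1, and rose in Th17 (log2 fold change 3.69, SE 0.56, adjusted p = 0.00237). Its close paralog *Csf2rb2*, the IL-3 specific chain of mice, rose in Th17 (5.24, SE 0.60, adjusted p = 6.35e-04) and in Th1 (3.55, SE 0.57, adjusted p = 0.00281), from under 1 CPM in both Naive libraries. Reads of the pair may be split between them. *Il3ra*, the alpha chain, was at 14.7 and 16.4 CPM in Naive, 38.9 and 28.2 CPM in Th17 and 55.1 and 78.2 CPM in Th1, and rose in Th1 (2.36, SE 0.31, adjusted p = 0.00108).

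*Il9r*, through which IL-9 acts on mast cells and T cells, was at 7.56 and 8.49 CPM in Naive, 1.97 and 0.845 CPM in Th17 and 0.695 and 0.273 CPM in Th1, lower in Th1 than in Naive (log2 fold change -3.71, SE 0.60, adjusted p = 0.00296). *Il1rl1*, the IL-33 receptor of mast cells and some T cells, was at 20.2 and 5.64 CPM in Naive, 17.2 and 27.5 CPM in Th17 and 52.1 and 123 CPM in Th1, with an adjusted p of 0.0105 for Th1 compared with Naive that narrowly missed the threshold. *Crlf2*, a chain of the TSLP receptor, had between 64.7 and 239 CPM and did not pass. The highest libraries of *Il1rl1*, *Il3ra* and *Crlf2* were therefore in Th1, unlike those of *Csf2rb*.

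Among the 10 transcription factors, all tested, 5 were lower in Th1 than in Naive. These 5 were *Lmo2*, *Tal1*, *Lyl1*, *Nfe2* and *Cebpa*, factors of haematopoietic progenitors and of erythroid and myeloid cells, with log2 fold changes from -4.69 to -2.67 and adjusted p-values from 0.0023 to 0.00495. *Tal1* was at 103 and 13.1 CPM in Naive, 7.87 and 11.8 CPM in Th17 and 2.33 and 1.47 CPM in Th1. *Lmo2* was at 117 and 22.03 CPM in Naive, 8.67 and 8.68 CPM in Th17 and 3.18 and 1.80 CPM in Th1. Naive replicate 1 was the highest library for all 5, as it was for *Kit* and *Gata2*. *Nfe2* was also lower in Th1 than in Th17 (-3.26, SE 0.63, adjusted p = 0.00855).

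*Gata1*, which directs erythroid, megakaryocyte, eosinophil and mast cell fates, was at 99.4 and 22.9 CPM in Naive, 11.8 and 11.9 CPM in Th17 and 51.3 and 78.2 CPM in Th1 and did not pass. Its cofactor *Zfpm1*, also made by naive T cells, was at 243 and 201 CPM in Naive, 20.04 and 8.91 CPM in Th17 and 52.2 and 97.3 CPM in Th1. It was lower in Th17 than in Naive (log2 fold change -3.92, SE 0.45, adjusted p = 6.58e-04) and higher in Th1 than in Th17 (2.61, SE 0.43, adjusted p = 0.00409). *Bhlhe40*, a factor of activated T cells and of basophils, rose from 9.21 and 9.14 CPM in Naive to 126 and 114 CPM in Th17 and 352 and 437 CPM in Th1, and passed in each of the 3 comparisons (adjusted p from 1.58e-05 to 0.00188). *Gata1* and *Zfpm1* had their lowest libraries in Th17, whereas those of *Gata2* were in Th1.

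Of 9 genes for lipid mediators and effector cytokines, 3 rose in Th17 compared with Naive and 5 were lower in Th1 than in Th17. *Alox5*, the 5-lipoxygenase of leukotriene synthesis, was at 2.31 and 0.860 CPM in Naive, 26.2 and 35.1 CPM in Th17 and 4.75 and 2.89 CPM in Th1 (Th17 compared with Naive log2 fold change 4.24, SE 0.53, adjusted p = 9.00e-04). *Alox5ap*, which presents arachidonate to it, was at 47.7 and 64.99 CPM in Th17 and 3.66 and 6.38 CPM in Th1, and was lower in Th1 (-3.29, SE 0.52, adjusted p = 0.00342). *Ptgs1*, a cyclooxygenase, rose in Th17 from 1.06 and 0.591 CPM to 8.82 and 9.69 CPM (3.46, SE 0.58, adjusted p = 0.0043). *Pla2g4a*, which releases arachidonate, had between 0.382 and 14.1 CPM and did not pass. The enzymes of this pathway were also lower in Th1 than in Th17 for *Alox5* (-2.80, SE 0.50, adjusted p = 0.00578) and *Ptgs1* (-3.20, SE 0.58, adjusted p = 0.0062).

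The cytokines *Il13* and *Il4* are made by mast cells and basophils and by Th2 cells. *Il13* was at 0.293 and 0.107 CPM in Naive, 25.2 and 20.6 CPM in Th17 and 1.01 and 0.763 CPM in Th1, rising in Th17 (log2 fold change 6.64, SE 0.54, adjusted p = 9.57e-05) and lower in Th1 than in Th17 (-4.45, SE 0.47, adjusted p = 4.96e-04). *Il4* was at 1.34 and 1.40 CPM in Naive, 4.59 and 4.23 CPM in Th17 and 0.695 and 0.436 CPM in Th1, lower in Th1 than in Th17 (-2.71, SE 0.52, adjusted p = 0.00842). In contrast to *Fcer1a*, *Cpa3* and *Cma1*, the Th17 replicates of *Il13* and *Il4* were close, with replicate 1 slightly above replicate 2. Those of *Hdc*, *Gata2* and *Kit* were also close, at 1.31-fold, 1.22-fold and 1.23-fold, so the contrast does not hold for all 8 genes.

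The list genes without a count in any library were *Ear2*, *Ear6*, *Ear10*, *Mrgprb1* and *Mcpt9*, named because they had no count. Here 3 of them are eosinophil ribonucleases with near-identical relatives, *Mrgprb1* is a receptor gene and *Mcpt9* is a mast cell protease. Counting could lose reads that match several relatives, so that a row at 0 does not show that the gene was silent.

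Across the 6 libraries the 8 genes followed each other to different degrees, given as Pearson's r of log2 CPM, without a p-value, over libraries that share cell type and depth. *Fcer1a* and *Mcpt8* had r = 0.97, *Cpa3* and *Hdc* 0.97, and *Gata2* and *Prg2* 0.89, whereas *Kit* and *Fcer1a* had -0.76. With the mean centred profile of all 8, r was 0.996 for *Ms4a2*, 0.94 for *Hdc*, 0.91 for *Cpa3*, 0.85 for *Mcpt8*, 0.83 for *Fcer1a*, 0.80 for *Prg2*, 0.53 for *Gata2* and -0.43 for *Kit*. Each gene is itself part of that mean.

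Among other genes with a mean of at least 5 CPM, the 5 most like this profile over the 6 libraries were *Stk16*, *Sec11c*, *Dpy19l4*, *Cd63* and *Dcaf13*, with r from 0.992 to 0.997. *Cd63*, a granule membrane protein that reaches the surface of degranulating basophils and mast cells, was at 12.3 and 3.55 CPM in Naive, 61.8 and 163 CPM in Th17 and 4.86 and 2.51 CPM in Th1. The other 4 covered narrower ranges. *Stk16* ran from 49.4 CPM in Th1 replicate 2 to 101.9 CPM in Th17 replicate 2, and *Dpy19l4* from 8.83 to 18.5 CPM in the same libraries. A likeness over 6 libraries is a description, and many genes can reach a high value with so few points.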

How the data were processed

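The authors mapped reads to mm10 with HISAT2 (2.2.1), removed duplicates and counted reads per gene with HTSeq (0.13.5), and the deposited values are raw counts as whole numbers. The annotation is not given in the sources used here. The methods name default counting and duplicate removal, while the accompanying code sets reverse strand and shows no such removal, so reads of an overlapping antisense gene may not be told apart. Levels are CPM of each library's total count, per kilobase of exon union (GENCODE vM21) where genes are compared.

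Counts were fitted with edgeR 4.0.16 (R 4.3.3, limma 3.58.1), using TMM factors of 0.862 to 1.09, filterByExpr and cell type as the only term over all 6 libraries, and the fit was tested on simulated data. Of 24223 genes, 13607 were tested by the quasi-likelihood test. A call needed an adjusted p of less than 0.01 (Benjamini-Hochberg over the 13607) and a log2 fold change beyond 1 in either direction. The SE is the absolute log2 fold change divided by the square root of F. The 8 genes and all lists were chosen with earlier results of these data known. Named list genes were the 4 of each role with the highest mean CPM and up to 4 more that were called. Likeness used log2 CPM with a prior count of 2. Alternatives were DESeq2 1.42.0, RLE factors, library size alone, 2 other filters, the replicate number as a block, a looser adjusted p of 0.05, thinning to the smallest library and leaving out each library.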

Additional observations from a re-analysis of the deposited data

How the results depend on the processing

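For the list genes called, the order given is higher then lower for Th17 against Naive, Th1 against Naive and Th1 against Th17, with 10, 1, 4, 10, 2 and 13 in the fit reported. DESeq2 gave 20, 4, 8, 16, 6 and 24, no filter on low counts gave 20, 5, 13, 16, 6 and 30, and an adjusted p-value under 0.05 gave 22, 5, 9, 16, 6 and 27, more in every case. At least 10 counts in every library, which tests fewer genes, gave 5 higher in Th17 than in Naive and 7 lower in Th1 than in Th17, and library size alone gave 1 higher in Th1 than in Th17. RLE factors and thinning to the smallest library kept all 6 numbers within 1.5 times, with 10, 1, 4, 10, 2 and 11 after thinning. With the replicate number as a replicate block, 3 were lower in Th17 than in Naive and 20 lower in Th1 than in Th17, and over all genes the calls went from 739, 1014 and 752 to 1035, 1402 and 1041. The labels do not say what a replicate number marks, and it was not taken as a pairing, with correlations of the replicate differences of -0.23 for Naive and Th17, 0.17 for Naive and Th1 and 0.08 for Th17 and Th1. A replicate block with the Th17 numbers crossed, chosen after seeing the data, gave 14 higher and 2 lower in Th17 than in Naive. Leaving out 1 library, so that its cell type keeps 1 library assumed to vary like the others, gave ranges of 6 to 11, 1 to 4, 3 to 5, 5 to 15, 0 to 4 and 4 to 23. Leaving out 1 library also turned the sign of 4 log2 fold changes, which ranged from -1.01 to 0.21 for *Gata2* in Th17 compared with Naive and, in Th1 compared with Naive, from -1.50 to 0.31 for *Ms4a2*, -0.084 to 0.59 for *Hdc* and -0.34 to 1.87 for *Cpa3*. Beyond these, 30 values for the 8 genes moved by more than 1 standard error, all of them with 1 library left out, such as -2.42 to -1.29 for *Kit* and 1.77 to 0.74 or 3.21 for *Prg2* in Th17 compared with Naive. The causes were not tested. Depth limited *Fcer1a* in Naive and *Prg2* and *Ms4a2* in Th1, where a library had 1, 7 and 12 counts.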
